A study of Mus musculus with 10 samples.

Results

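The transcripts of 8 genes (the members) were followed in RNA of splenic Ly6Chigh monocytes. They were Hmgcs1, Idi1, Fdps, Fdft1, Sqle, Lss and Cyp51, which encode enzymes of cholesterol synthesis, and Insig1, which encodes a membrane protein that restrains this synthesis. Members were taken by gene name, and all 8 were found in each of the 10 libraries, among 24421 gene names common to all tables. None of the 8 encodes a lipoprotein receptor, so genes of cholesterol uptake, such as Scarb1, were read from a separate list. The RNA came from the spleens of male mice, 8 to 10 weeks old, on day 5 after surgery, with 3 libraries of WT mice (C57BL/6) after sham surgery (replicates 1, 2 and 3), 3 of WT mice after myocardial infarction (MI, replicates 2, 3 and 4) and 4 of Foxp3DTR mice after MI (replicates 1 to 4). For MI the left anterior descending artery of the heart was tied off for good, and in sham surgery the chest was opened but no vessel was tied. Every mouse received buprenorphine against pain. In Foxp3DTR mice the promoter of Foxp3, the gene that marks regulatory T cells (Tregs), drives a human receptor for diphtheria toxin, so that the toxin ablates Tregs and any other cell in which this promoter is active. Toxin was given at 500 ng on days 2 and 1 before surgery and at 250 ng on day 2 after it. The protocol gives this schedule for Treg ablation with MI or sham surgery alike. That the WT mice after MI also received toxin is an inference from the paper, and whether the WT sham mice did is not stated for these libraries. Each library is taken as 1 animal, since no source used here says that animals were pooled or split. If libraries were split from 1 animal, p-values would measure technical spread only. If animals were pooled, the libraries would stand for pools and not for single animals.

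Cholesterol is built from acetyl-CoA. Hmgcs1 acts early, on the way to mevalonate, and Idi1 and Fdps make isoprenoids from it. Fdft1 and Sqle make and oxidise squalene, Lss closes the sterol rings, and Cyp51 removes the first methyl group from lanosterol. The genes of these enzymes are classical targets of the transcription factor SREBP-2, which is held in the endoplasmic reticulum by Scap and Insig proteins while sterols are plentiful. Monocytes and macrophages both make sterols and take them up, and they export the excess through transporters driven by the liver X receptors (LXR).

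The regulatory sequence of 2 members is shown. Hmgcs1 was the only member whose groups did not overlap between Foxp3DTR and WT mice after MI. Insig1 was the member whose fitted difference in that comparison was nearest to 0. Both differences were positive, and neither passed the test. Each sequence is the 250 bases just before the annotated start in the RefSeq windows (build GRCm38.p6, plus strand in both), chr13:119690101-119690350 for Hmgcs1 and chr5:28071162-28071411 for Insig1. Capitals mark matches, on either strand, to the sterol regulatory element core TCACNCCAC, the E-box CACGTG, the CCAAT box CCAAT and the GC box GGGCGG, none of which overlapped another here.
Hmgcs1: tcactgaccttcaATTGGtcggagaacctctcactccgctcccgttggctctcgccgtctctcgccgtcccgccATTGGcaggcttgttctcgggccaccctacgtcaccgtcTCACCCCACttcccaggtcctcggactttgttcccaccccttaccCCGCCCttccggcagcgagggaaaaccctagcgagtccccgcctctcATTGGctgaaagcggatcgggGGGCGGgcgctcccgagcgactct
Insig1: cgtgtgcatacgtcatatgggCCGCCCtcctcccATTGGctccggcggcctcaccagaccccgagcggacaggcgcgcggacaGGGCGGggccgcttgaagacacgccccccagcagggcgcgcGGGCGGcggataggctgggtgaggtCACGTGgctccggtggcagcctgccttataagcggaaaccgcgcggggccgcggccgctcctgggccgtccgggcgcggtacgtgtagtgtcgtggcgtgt
The window of Hmgcs1 held TCACNCCAC 137 bases before the start, a match found in 1.05% of 32851 windows of this length. The window of Insig1 held CACGTG 101 bases before the start, a match found in 6.02% of windows. Windows were matched for 5 of the 8 members, Hmgcs1, Idi1, Lss, Cyp51 and Insig1, and not for Sqle, Fdps and Fdft1. Each of the 5 held CCAAT (33.8% of all windows) and GGGCGG (32.7% of all windows), and no other of the 5 held TCACNCCAC or CACGTG. A match describes letters only.

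The libraries differed in depth and in marker RNA. Depth inferred from the tables ran from 3.13 M reads (WT sham replicate 2) to 8.40 M reads, where M is 1000000. The tables hold no counts, so single values carry no counting interval. The sort markers Ly6c2 (1535 to 5065 scaled TPM), Csf1r (469 to 904), Itgam (298 to 433) and Adgre1 (116 to 179) were present in every library. Ly6g, the gene of the marker that the gate sorted against, has no entry. Foxp3 stood at 0.898 to 6.34 scaled TPM in WT mice after MI and at 4.29 to 5.34 in Foxp3DTR mice, which checks nothing about Tregs, since T cells were depleted before the sort. Marker RNA of neutrophils, T cells and NK cells was higher in WT sham replicate 3 than in the other sham libraries. Its erythroid markers summed to 214 scaled TPM, beside 9.69 and 59.1 in replicates 1 and 2. Its interferon-gamma response genes summed to 2068, beside 1574 and 1346. Its sums of B cell, plasma cell and proliferation genes were also the highest of sham. Those of Ly6Chigh, Ly6Clow and dendritic cell markers were the lowest. Results against sham are given below with and without this library.

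Insig1, Hmgcs1 and Cyp51 were the 3 most abundant members in every group, and Lss the least abundant. TPM is per length, so levels of different genes may be compared, and all levels below are scaled TPM (TPM divided by a factor per library that sets the median gene equal). Over the 10 libraries, Insig1 stood at 36.8 ± 8.21 (mean ± SD, n = 10) and Hmgcs1 at 32.7 ± 5.98, and their ranges overlapped. Cyp51 followed at 22.4 ± 4.92 and was below Hmgcs1 in 9 of 10 libraries. Idi1 (14.6 ± 3.96), Fdps (14.0 ± 4.46), Fdft1 (11.8 ± 5.73) and Sqle (10.9 ± 3.79) formed a middle set in which each gene's range overlapped that of the next. Lss was lowest at 1.93 ± 0.49 and did not overlap Sqle, its neighbour in this order, in any group. The coverage of Lss was 0.0991 to 0.383 reads per base, against 3.03 to 5.26 for Insig1. Along the whole pathway, Lss and Hsd17b7, a later enzyme, were the lowest of the 20 enzymes plotted, and Lbr, which combines a sterol reductase with a nuclear lamina protein, was highest at 120 to 283 scaled TPM.

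**Figure D1:**
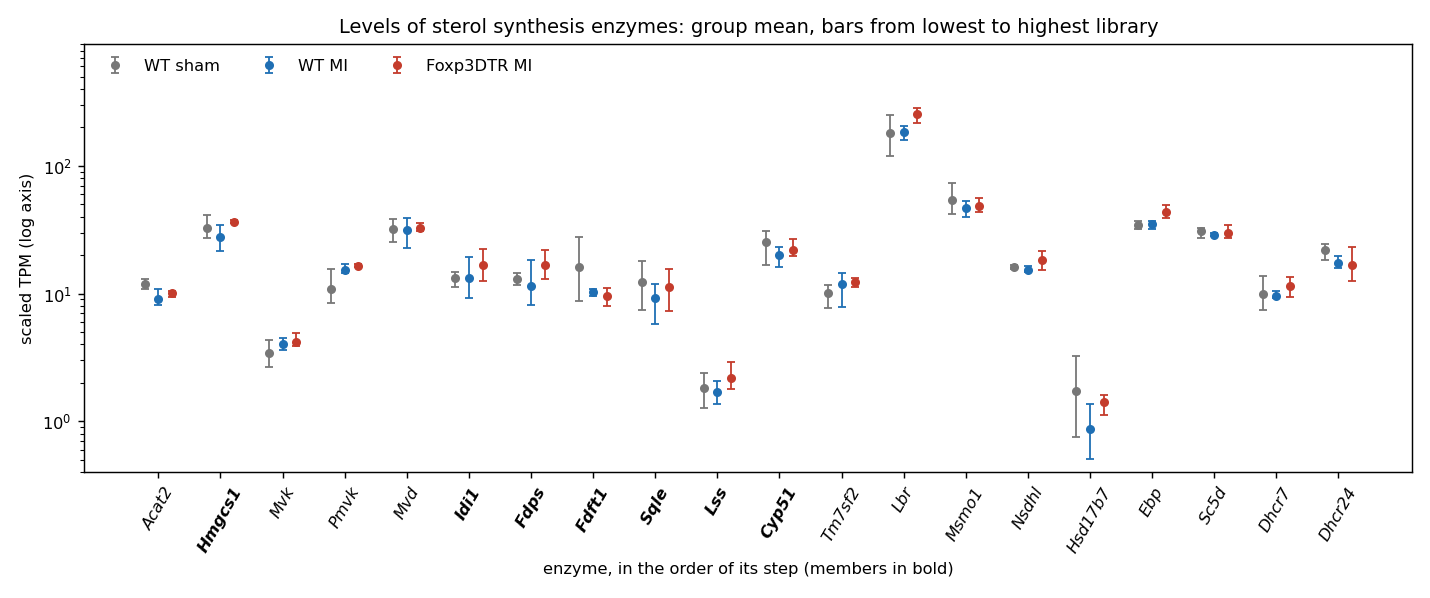
Scaled TPM (log axis) of 20 sterol synthesis enzymes in the order of their steps, with the mean of each group as a point and bars from its lowest to its highest library (3 WT sham, 3 WT MI, 4 Foxp3DTR MI); the 7 enzymes among the members are in bold. Lss lies near 2 scaled TPM in every group, and for Hmgcs1 the Foxp3DTR MI bar lies above the WT MI bar.

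The main comparison set Foxp3DTR mice against WT mice after MI, and asks how monocytes differ after MI when Tregs are depleted. This depletion was partial, since the paper reports that some Foxp3+ cells remained among the CD4+ T cells of the spleen. No member passed the test in either direction. Of the 8, 7 had a positive fitted difference, the largest being Fdps and Hmgcs1, and only the groups of Hmgcs1 did not overlap. Over all 12938 genes tested with limma at an adjusted p of 0.05, 145 were called (1.12%), so that 0 of 8 is near the background. At an unadjusted p under 0.05 the members count 1 (Hmgcs1), and all genes 2295 (17.7%). The median log2 difference of the members was 0.25, beside 0.00 for all genes (50.1% of which were positive). Differences are in log2(scaled TPM + 1), a scale that understates changes of low genes such as Lss.

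Hmgcs1 encodes the cytosolic HMG-CoA synthase, an early enzyme of the pathway. Its level was 34.2, 27.0 and 21.5 scaled TPM in WT MI replicates 2, 3 and 4, and 35.4, 37.3, 35.9 and 37.5 in Foxp3DTR MI replicates 1 to 4. All Foxp3DTR libraries lay above all WT MI libraries, and the Foxp3DTR libraries were close together while the WT MI libraries were spread. The difference was 0.42 on the log2 scale (SE 0.17, 95% interval 0.04 to 0.79) with an adjusted p of 0.235 in limma, and it did not pass. Groups lay apart in the same direction for 9.97% of all genes. Leaving out WT MI replicate 4, the lowest library, brought the difference to 0.26 with an adjusted p of 0.524. Over all alternatives the adjusted p in limma ran from 0.0701 to 0.524. The lowest came without scaling (difference 0.65), where the median gene itself moved by 0.22. Every other alternative gave 0.12 or more.

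Idi1 and Fdps act one after the other on isoprenoid diphosphates. Idi1, the isopentenyl diphosphate isomerase, stood at 19.2, 11.6 and 9.19 scaled TPM in WT MI replicates 2, 3 and 4 and at 17.2, 22.3, 12.4 and 14.7 in Foxp3DTR MI replicates 1 to 4. Fdps, the farnesyl diphosphate synthase, stood at 18.2, 8.11 and 8.36 in the same WT MI libraries and at 12.96, 21.9, 12.99 and 18.8 in the Foxp3DTR libraries. For both genes WT MI replicate 2 was far above the other two WT MI libraries and lay within the Foxp3DTR range. The log2 difference of Fdps was 0.55 (SE 0.28, 95% interval -0.07 to 1.17, adjusted p of 0.335 in limma), the largest of the 8, and with single libraries left out it ran from 0.36 (without WT MI replicate 3) to 0.90 (without WT MI replicate 2). That of Idi1 was 0.33 (SE 0.25, interval -0.23 to 0.89, adjusted p of 0.525 in limma), and it ran from 0.11 (without WT MI replicate 4) to 0.61 (without WT MI replicate 2). The annotation (GENCODE M21) places 1124 exonic bases of Fdps in Gm43738 on the same strand, so its reads may be shared. On the opposite strand, Hmgcs1 shares 557 exonic bases with Gm48342 and Idi1 323 with Gm48574. Lss shares 381 with 4930483K19Rik and Cyp51 166 with Akap9, also on the opposite strand. No strand setting is stated, so reads of these members may be shared too.

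Fdft1, the squalene synthase, was the only member with a negative difference, with 10.6, 9.62 and 10.8 scaled TPM in WT MI replicates 2, 3 and 4 and 7.92, 11.1, 8.61 and 10.8 in Foxp3DTR MI replicates 1 to 4. Its WT MI libraries lay inside the Foxp3DTR range, and the log2 difference was -0.10 (SE 0.31, 95% interval -0.79 to 0.58, adjusted p of 0.891 in limma). Sqle, the squalene epoxidase and a step that limits flux into sterols, stood at 11.8, 10.1 and 5.82 in WT MI and at 12.01, 15.6, 7.25 and 9.75 in Foxp3DTR MI. The lowest of these 7 libraries was again WT MI replicate 4, without which the log2 difference of 0.25 (SE 0.33, interval -0.48 to 0.98, adjusted p of 0.736 in limma) became -0.02. Lss, the lanosterol synthase, stood at 2.05, 1.62 and 1.37 in WT MI and at 1.83, 2.89, 2.30 and 1.77 in Foxp3DTR MI. Its groups overlapped, and the log2 difference was 0.25 (SE 0.24, interval -0.29 to 0.78, adjusted p of 0.626 in limma), from 0.15 without Foxp3DTR MI replicate 2 to 0.35 without WT MI replicate 2.

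Cyp51 and Insig1 differed least among the positive members. Cyp51, the lanosterol demethylase, stood at 23.0, 20.7 and 16.2 scaled TPM in WT MI replicates 2, 3 and 4 and at 21.1, 26.6, 19.7 and 20.2 in Foxp3DTR MI replicates 1 to 4. Insig1 stood at 32.8, 28.0 and 43.1 in WT MI and at 32.4, 39.6, 36.5 and 31.0 in Foxp3DTR MI. WT MI replicate 4, which was lowest for Hmgcs1, Sqle, Idi1 and Cyp51, was the highest library of both MI groups for Insig1. The log2 difference was 0.13 for Cyp51 (SE 0.21, 95% interval -0.34 to 0.60, adjusted p of 0.790 in limma) and became -0.01 without WT MI replicate 4. For Insig1 it was 0.02 (SE 0.21, interval -0.43 to 0.48, adjusted p of 0.962 in limma), and its sign turned without WT MI replicate 2, WT MI replicate 3 or Foxp3DTR MI replicate 2.

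**Figure D2:**
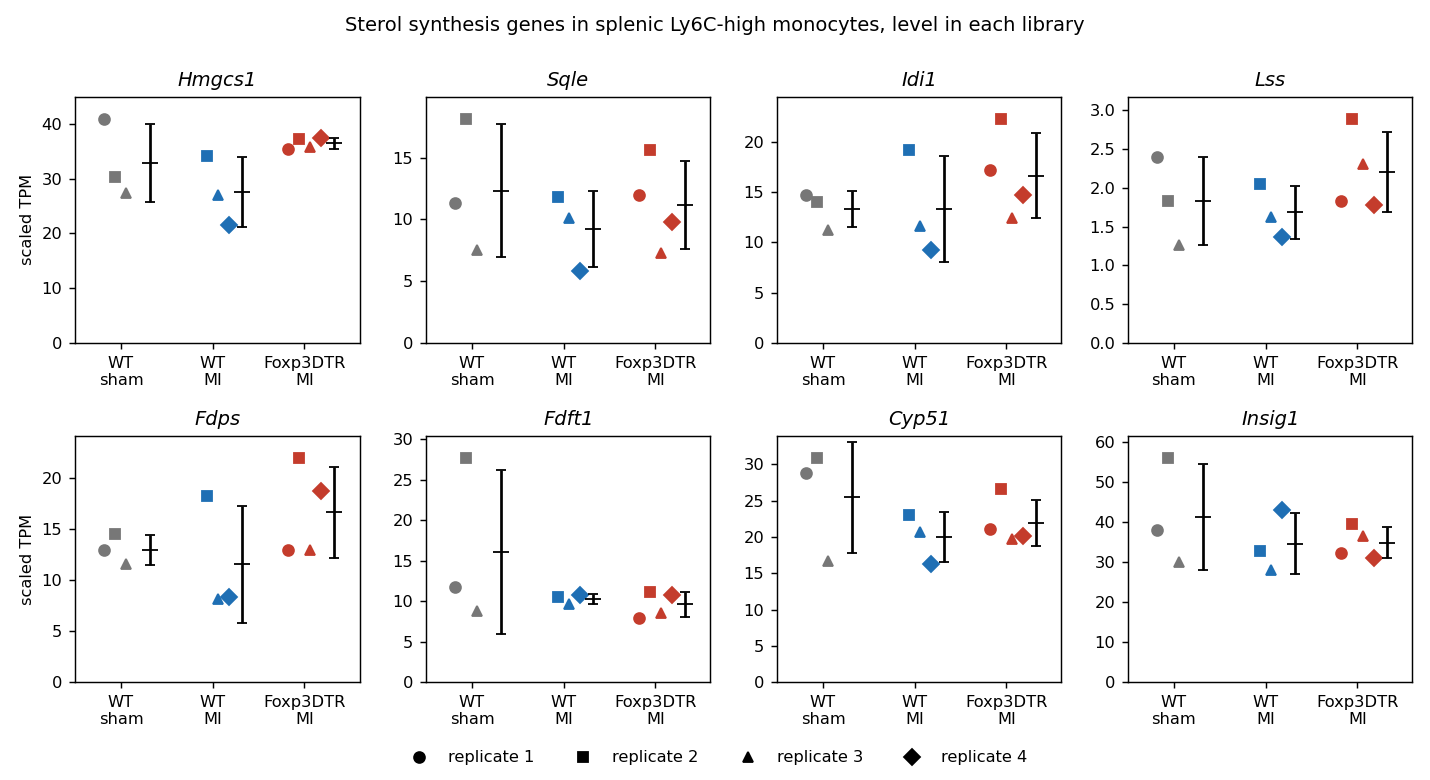
Scaled TPM of each member (1 panel each, axes from 0) in every library, by group, with the marker shape giving the replicate number and the bar the mean ± SD of the group (3 WT sham, 3 WT MI, 4 Foxp3DTR MI). The 4 Foxp3DTR MI values of Hmgcs1 lie between 35.4 and 37.5, above the 3 WT MI values, while the groups of the other 7 members overlap.

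WT mice after MI were then compared with WT mice after sham surgery. Toxin treatment may differ between these groups as well, and then it cannot be told apart from surgery. No member passed the test, and every member's difference was negative, from -0.44 (Fdft1) to -0.05 (Idi1) on the log2 scale. Over all 12938 genes limma called 0 (0%), while 600 (4.64%) had an unadjusted p under 0.05, none of them a member. The median of the members was -0.25 beside 0.00 for all genes, of which 49.7% were positive. The groups overlapped for all 8 members, although they did not overlap for 6.91% of all genes.

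Hmgcs1 stood at 40.9, 30.3 and 27.4 scaled TPM in sham replicates 1, 2 and 3, Fdps at 12.9, 14.5 and 11.6, and Idi1 at 14.7, 14.0 and 11.3. Lss stood at 2.39, 1.83 and 1.265 in the same libraries. For all 8 members replicate 3 was the lowest sham library, whether the gene was abundant or not.
Fdft1 stood at 11.8, 27.7 and 8.76 scaled TPM in sham replicates 1, 2 and 3, and Sqle at 11.3, 18.1 and 7.49. Cyp51 stood at 28.8, 30.8 and 16.7, and Insig1 at 38.1, 55.9 and 30.1. Replicate 2, the library of lowest depth, was the highest of all 10 libraries for these 4 genes.

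The fitted log2 differences of WT MI from sham were small against their intervals. For Fdft1 it was -0.44 (SE 0.33, 95% interval -1.17 to 0.30, adjusted p of 0.962 in limma), and without sham replicate 2 it was 0.02. For Sqle it was -0.35 (interval -1.13 to 0.43), for Cyp51 -0.30 (interval -0.81 to 0.20), for Hmgcs1 -0.25 (interval -0.65 to 0.15) and for Fdps -0.24 (interval -0.90 to 0.42). Insig1, with -0.23 (interval -0.72 to 0.26), also turned positive without sham replicate 2, at 0.01. With single libraries left out, Sqle ran from -0.63 (without sham replicate 3) to -0.05 (without sham replicate 2) and Cyp51 from -0.57 to -0.15 without the same libraries. Hmgcs1 ran from -0.41 (without WT MI replicate 2) to -0.08 (without sham replicate 1), and Fdps from -0.59 (without WT MI replicate 2) to -0.06 (without WT MI replicate 3). Lss (-0.07) and Idi1 (-0.05) changed sign, with ranges of -0.22 to 0.08 and -0.33 to 0.17. Adjusted p over the members ran from 0.960 to 0.997 in limma. Without sham replicate 3 the median of the members was -0.40, and none was called. Fdft1 lies beside Ctsb, an abundant cathepsin gene on the opposite strand, and the spans of the 2 genes share 773 bases at their ends. Ctsb stood at 706, 422 and 453 scaled TPM in sham replicates 1, 2 and 3, so that the library highest for Fdft1 was the lowest of all for Ctsb, and the rule by which overlapping reads were counted is not known here.

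Foxp3DTR mice after MI were also set against sham-operated WT mice, a comparison in which genotype, Treg ablation and surgery all differ and cannot be told apart. No member was called, against 70 of 12938 genes (0.541%), and the groups overlapped for all 8 (they did not for 18.2% of all genes). The members were split, 4 with a positive and 4 with a negative difference, and their median was 0.03 beside -0.01 for all genes (49% positive). Fdps (0.31), Idi1 (0.28), Lss (0.18) and Hmgcs1 (0.17) were positive, and Fdft1 (-0.54), Insig1 (-0.20), Cyp51 (-0.17) and Sqle (-0.10) negative. The 4 negative members are those for which sham replicate 2 was highest, and without it Sqle (0.20) and Insig1 (0.03) turned positive. The lowest adjusted p in limma was 0.38, for Fdft1 (SE 0.31, 95% interval -1.22 to 0.14). Without sham replicate 3 the median of the members was -0.18, and still none was called, while 636 of 12772 genes were. All 3 comparisons share groups, so their values are not independent, and each is shown beside the others in the plot of fitted differences.

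**Figure D3:**
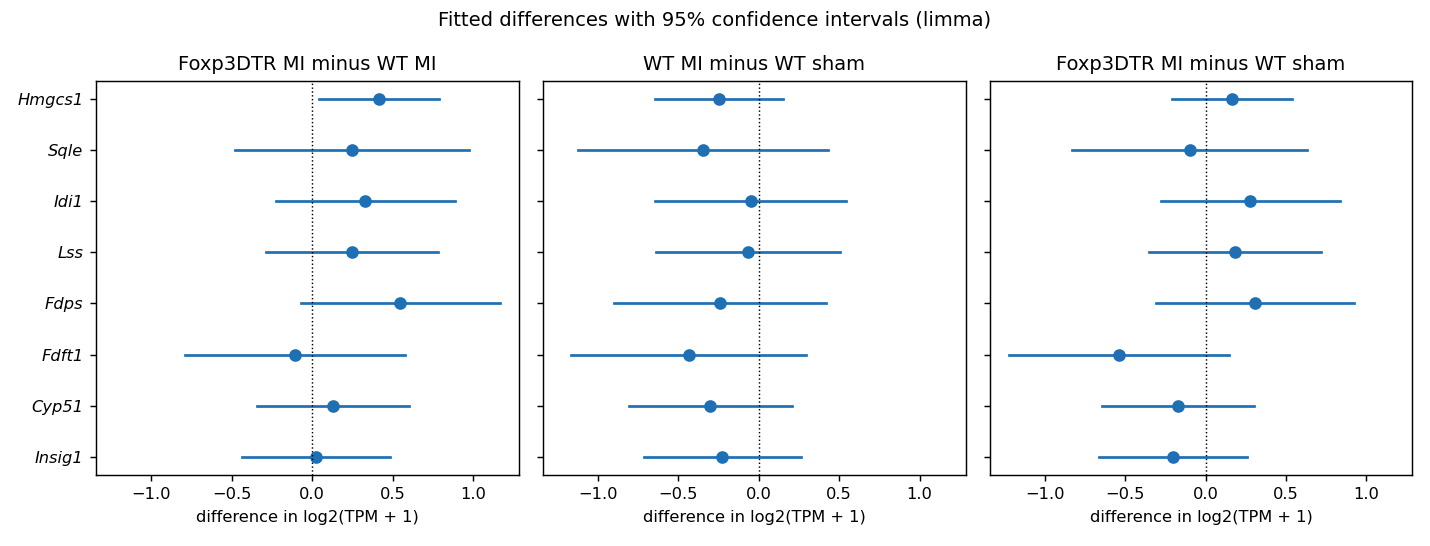
Fitted difference in log2(scaled TPM + 1) with its 95% confidence interval (limma) for the 8 members, in each of the 3 comparisons; the dotted line is 0. In Foxp3DTR MI minus WT MI the interval of Hmgcs1 lies above 0 (before adjustment over genes), and in the other comparisons every member's interval holds 0.

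The members' levels varied between libraries of the same group. Foxp3DTR MI replicate 2 was among the 3 highest of 10 libraries for 8 of 8 members, and WT sham replicate 3 among the 3 lowest for 8 of 8. WT MI replicate 4 was among the 3 lowest for 6 of 8. The mean of the members' centred log2 levels was highest in WT sham replicate 2 (0.38) and Foxp3DTR MI replicate 2 (0.36) and lowest in WT MI replicate 4 (-0.37) and WT sham replicate 3 (-0.31), so each extreme held libraries of different groups. The members' SD within groups ran from 0.23 (Hmgcs1) to 0.49 (Sqle) on the log2 scale, and 0.25 was the median over all genes. Only Hmgcs1 and Lss (0.24) were at or under that median.

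Of 12930 other genes tested, the 5 whose log2 profile over the 10 libraries was most like the members' mean profile were Taf15 (Pearson r 0.923, Spearman rho 0.879), Dnajc21 (0.923, 0.903), Zc3h10 (0.870, 0.879), Scd2 (0.864, 0.842) and Itsn2 (0.858, 0.855). They were picked as the highest of many and share libraries and scaling with the members, so the values are a description. Scd2, a fatty acid desaturase, stood at 14.1, 11.5 and 6.31 scaled TPM in the sham libraries, at 12.3, 7.83 and 8.0 in WT MI and at 9.01, 14.5, 8.94 and 12.1 in Foxp3DTR MI. As for Lss, sham replicate 3 was the lowest and Foxp3DTR MI replicate 2 the highest of the 10 libraries.

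The rest of the pathway was read from lists, with counts over the genes reported. Of 13 tested among 14 other sterol synthesis enzymes, 0 passed the test between Foxp3DTR and WT mice after MI, 12 of 13 were positive, and the median was 0.09. Ebp, a sterol isomerase, stood at 36.8, 32.1 and 36.4 scaled TPM in WT MI replicates 2, 3 and 4, at 39.1, 42.2, 41.9 and 49.4 in Foxp3DTR MI replicates 1 to 4, and at 32.2, 34.1 and 37.3 in sham. All Foxp3DTR libraries lay above every WT library, and the log2 difference between the MI groups was 0.29 (SE 0.11, adjusted p of 0.213 in limma). Lbr stood at 192, 205 and 160 scaled TPM in WT MI and at 253, 283, 217 and 256 in Foxp3DTR MI. Its MI groups did not overlap either, but sham replicate 3 (249) lay within the Foxp3DTR range, and the difference was 0.44 (SE 0.21, adjusted p of 0.303 in limma). Nsdhl, a sterol dehydrogenase, differed by 0.24 (adjusted p of 0.412 in limma) with overlapping groups.

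Genes that control SREBP were read next. Of 8 tested in the main comparison 0 passed, and their median was 0.02. Srebf2, which encodes SREBP-2, stood at 73.9, 60.4 and 63.4 scaled TPM in WT MI and at 65.7, 75.4, 72.6 and 72.3 in Foxp3DTR MI (log2 difference 0.12), and Srebf1 differed by 0.07. Insig2, the relative of Insig1, differed by -0.21 (adjusted p of 0.406 in limma). Rnf139, a ubiquitin ligase of the endoplasmic reticulum, differed by 0.29 (adjusted p of 0.341 in limma). Mbtps2, the protease that makes the second cut of SREBP, differed by -0.19 (adjusted p of 0.467 in limma).

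The uptake and trafficking genes and the oxysterol and LXR genes had negative medians in Foxp3DTR MI against WT MI, and none was called. Of 14 tested genes of lipoprotein uptake and sterol trafficking 0 passed, 9 were negative, and the median was -0.24. Lrp1, a large endocytic receptor, differed by -0.52 (adjusted p of 0.0961), Scarb1, the HDL receptor, by -0.67 (adjusted p of 0.168) and Stard3, a late endosomal sterol carrier, by -0.32 (adjusted p of 0.268), all in limma. Of 6 tested oxysterol and LXR genes 0 passed and all 6 were negative, with a median of -0.63. Abca1, a cholesterol exporter, had 4.06, 9.32 and 8.05 scaled TPM in WT MI and 3.45, 2.00, 2.45 and 1.65 in Foxp3DTR MI. Its groups did not overlap, and the difference was -1.23 (adjusted p of 0.0862 in limma). Abcg1, another exporter of this list, differed by -0.05 (adjusted p of 0.872 in limma) with overlapping groups. Cyp27a1, a sterol hydroxylase, differed by -0.79 (adjusted p of 0.0915) and Nr1h3, which encodes LXR alpha, by -0.78 (adjusted p of 0.146 in limma). Groups that did not overlap in this direction made up 9.02% of all genes.

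**Figure D4:**
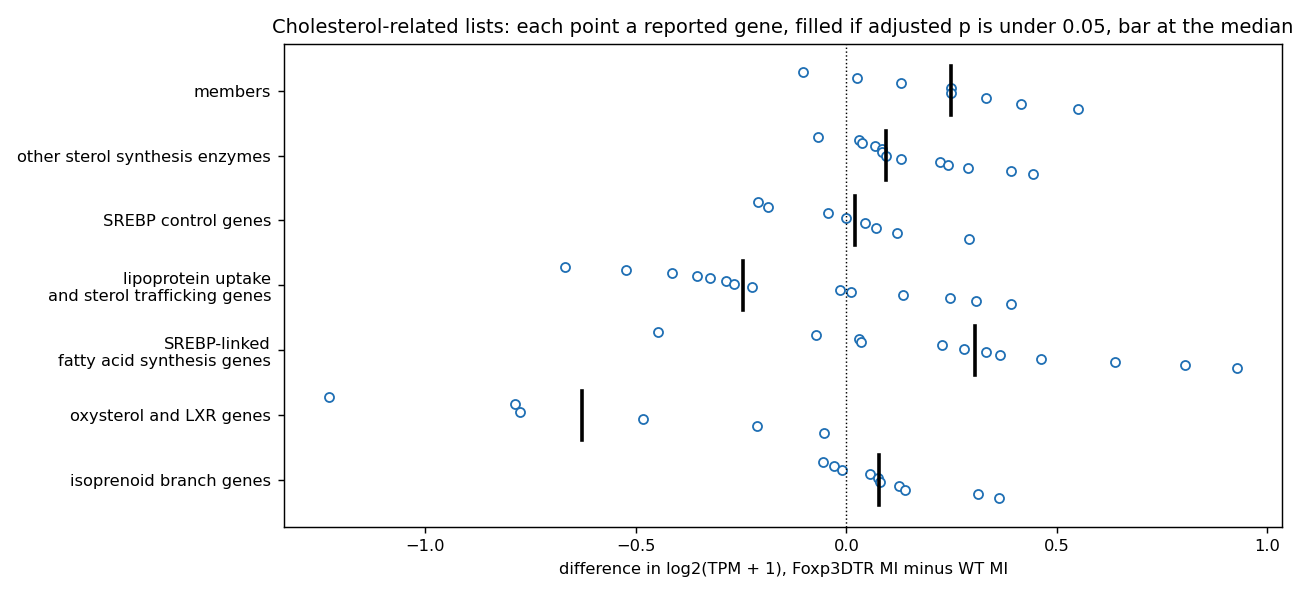
Difference in log2(scaled TPM + 1), Foxp3DTR MI minus WT MI, of each tested and reported gene of the members and of 6 related lists, 1 point per gene, filled where the adjusted p is under 0.05, with a bar at the list's median. No point shown is filled; the median of the members is 0.25 and that of the oxysterol and LXR genes -0.63.

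Of 12 tested fatty acid synthesis genes linked to SREBP, 0 passed between the MI groups, 10 were positive and the median was 0.31. Fads1, a desaturase, differed by 0.93 (adjusted p of 0.0543 in limma), from 4.59, 3.11 and 3.62 scaled TPM in WT MI to 7.67, 8.97, 7.55 and 7.92 in Foxp3DTR MI, with no overlap. Acly, which supplies cytosolic acetyl-CoA, differed by 0.28 (adjusted p of 0.190) and Elovl6, a fatty acid elongase, by 0.64 (adjusted p of 0.226 in limma). Of 10 tested isoprenoid branch genes, which use the products of Idi1 and Fdps, 0 passed and the median was 0.08. Nus1 (0.36), Pdss1 (0.31) and Dhdds (0.08) had the lowest p. In WT MI against sham and in Foxp3DTR MI against sham no reported gene of these 6 lists passed the test.

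Other RNA moved with the groups too. Neutrophil markers (9 of 10 listed have an entry) summed to 65.4 to 334 scaled TPM in WT MI, to 832 to 2375 in Foxp3DTR MI and to 216, 221 and 1064 in sham replicates 1, 2 and 3. All 9 had positive differences between the MI groups and 3 passed, while Camp and Ltf were listed at 0 in WT MI replicates 3 and 4. T cell markers (8 of 10) summed to 13.8 to 16.5 in WT MI and 33.2 to 107 in Foxp3DTR MI, and to 143 in sham replicate 3. All 8 had positive differences between the MI groups, and 0 passed (lowest adjusted p of 0.0915 in limma). NK cell markers (7 of 7) summed to 30.8 to 64.1 in WT MI and 76.7 to 146 in Foxp3DTR MI. Other sums were lower in Foxp3DTR MI, where the uptake and LXR genes also had negative medians. Markers of Ly6Clow monocytes (8 of 8) summed to 1312 to 1692 in WT MI, to 774 to 898 in Foxp3DTR MI and to 977 to 1916 in sham. Of these 8, Cx3cr1, a chemokine receptor (-2.56, adjusted p of 0.0151), and Ace, a peptidase (-1.53, adjusted p of 0.0413), were called lower in limma, and 6 were negative. Dendritic cell markers (7 of 7) summed to 49.1 to 75.9 in WT MI and to 14.7 to 28.9 in Foxp3DTR MI. In sham they summed to 52.0 to 125. Of 6 tested, 0 was called, 3 were positive and 3 negative, with a median of -0.01 between the MI groups. The lower sum came mostly from Flt3 (mean 42.5 in WT MI, 11 in Foxp3DTR MI) and Cd209a (12.4 and 3.66). Markers of Ly6Chigh monocytes summed to 40850 to 45610 in WT MI and 22620 to 36050 in Foxp3DTR MI. Of these 8, 0 was called, 4 were positive and 4 negative. Lyz2 made up most of these sums (33620 to 37190 in WT MI, 14760 to 25350 in Foxp3DTR MI). For B cell, plasma cell and erythroid markers the sums of the MI groups overlapped, and of their tested genes 1 was called, Cd79b (-0.78, adjusted p of 0.0496 in limma). The plasma cell sum was mostly Xbp1 (362 to 423 scaled TPM in WT MI), which hides 2 other genes of that list. Jchain stood at 3.93 to 13.8 in WT MI and at 28.4 to 93.6 in Foxp3DTR MI. Mzb1 stood at 0 in WT MI and at 0.778 to 9.66 in Foxp3DTR MI. Neither overlapped between the MI groups, and neither passed the test. The 12 proliferation genes summed to 713, 253 and 346 in WT MI replicates 2, 3 and 4 and to 807, 958, 451 and 813 in Foxp3DTR MI replicates 1 to 4. All 12 were positive between the MI groups, and 0 was called. In both MI groups the library with the highest sum of proliferation genes also had the highest sum of the members (152 in WT MI replicate 2 and 177 in Foxp3DTR MI replicate 2). In sham the highest proliferation sum (replicate 3, 500) went with the lowest member sum (115). The part of these markers in the levels of the members or of the uptake and LXR genes was not tested, and in bulk RNA a change in the share of cells cannot be told apart from a change of RNA per cell.

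**Figure D5:**
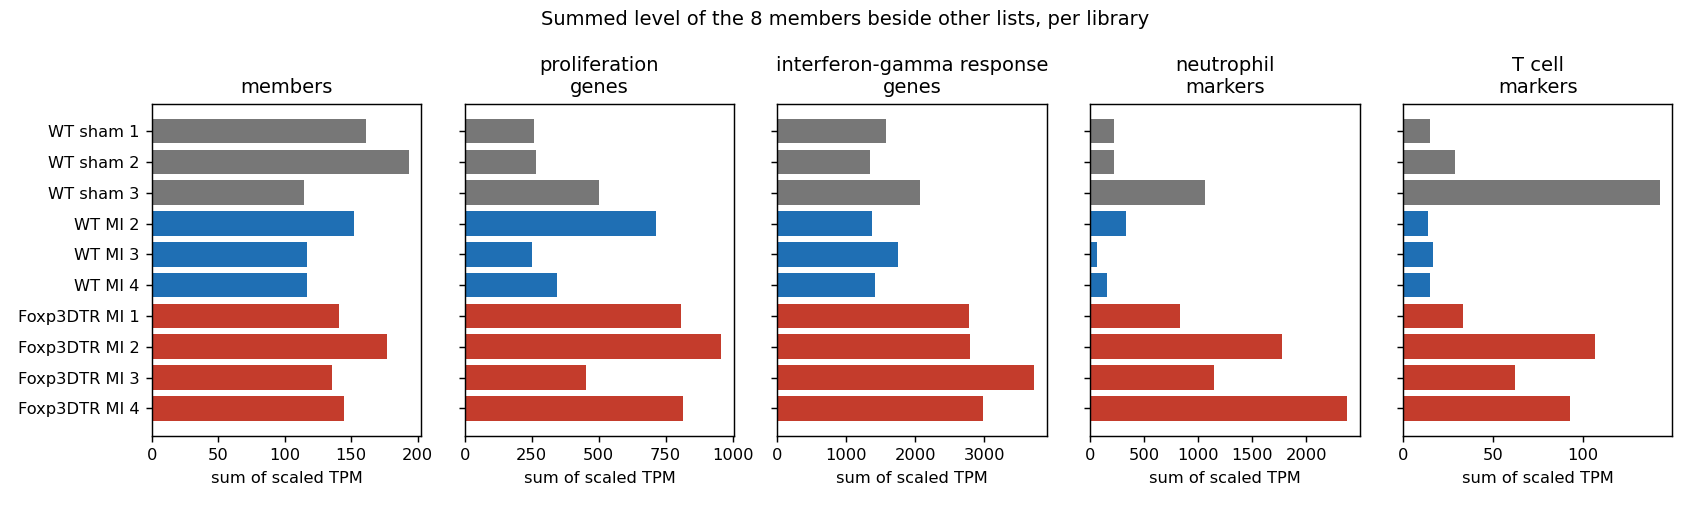
Sum of scaled TPM per library (bars from 0) for the 8 members, 12 proliferation genes, 12 interferon-gamma response genes, 9 neutrophil markers and 8 T cell markers, with libraries in rows and group as colour. The member sums of the 3 groups overlap (115 to 193 in sham, 116 to 152 in WT MI, 136 to 177 in Foxp3DTR MI), while the interferon-gamma sums of Foxp3DTR MI (2774 to 3724) lie above those of WT MI (1368 to 1752).

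In the tables' own coordinates (mm10) the members lie apart, on 6 chromosomes. Hmgcs1 spans chr13:119690351-119708260 and Idi1, the other member of that chromosome, chr13:8885606-8892396. Sqle spans chr15:59315092-59331193, Lss chr10:76531605-76557139, Fdps chr3:89093588-89101967 and Fdft1 chr14:63145151-63179578. Cyp51 spans chr5:4080674-4104697 and Insig1, on the same chromosome, chr5:28071412-28078662. All 8 are protein-coding genes, annotated with 5 (Insig1) to 22 (Lss) exons in the longest transcript of GENCODE M21.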

How the data were processed

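Groups and replicate numbers came from the sample labels. According to the submitters' processing notes, CASAVA (1.4), cutadapt (1.1), STAR (2.5) and StringTie (1.3.0) were used with mm10; no strand setting is stated. Each deposited table gives per gene a coverage, an FPKM (per kilobase and 1000000 fragments) and a TPM, without counts, so the count test named in the paper could not be used. Deposited TPM adds up to 1000000 per library. Depth was inferred from the deposited coverage over the deposited FPKM.

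TPM was summed per gene name, scaled between libraries by median-of-ratios factors and taken as log2(TPM + 1). Only genes reaching 1 TPM in 3 or more libraries were tested. limma 3.58.1 (R 4.3.3) fitted the 3 group means over 10 libraries with a variance trend; tests are two-sided, with Benjamini-Hochberg adjustment over 12938 genes and a threshold of 0.05. The procedure was tested on simulated data. Without scaling, the median gene moved by 0.22 between the MI groups, by -0.17 between WT MI and sham and by 0.05 between Foxp3DTR MI and sham, and changes are relative to it.

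The members and lists were chosen with earlier results of these data known. Genes named outside the members were the 3 of lowest p per list in Foxp3DTR MI against WT MI, any called, Srebf1, Srebf2, Insig2, the sort markers, Foxp3 and the 5 genes most like the members' profile. A few listed genes are not reported here, and each list is counted without them. Ctsb, Hsd17b7, Abcg1, Camp, Ltf, Xbp1, Jchain, Mzb1, Flt3, Cd209a, Lyz2 and genes overlapping a member were named after their values or positions were seen. Promoter windows were RefSeq's for GRCm38.p6. Same-numbered libraries did not deviate together, so numbers were not taken as pairs. Alternatives were other scalings, FPKM, pseudocounts, filters, fits, weights, a block and the removal of each library.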

Additional observations from a re-analysis of the deposited data

How the results depend on the processing

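Members called stayed at 0 of 8 in all 3 comparisons under each of 21 alternatives, and the members' median kept its sign between Foxp3DTR MI and WT MI (0.12 to 0.44) and between WT MI and sham (-0.42 to -0.05), whereas against sham in Foxp3DTR mice it ran from -0.18 to 0.16. Of 498 recomputed member differences, 21 changed sign, and none passed the threshold. Lss could not be tested with a filter at 5 TPM or with FPKM, where it fell under the filter. The number of genes called depended strongly on the settings. Between Foxp3DTR MI and WT MI it was 145, and it was 527 without scaling, 22 with no filter, 583 with only these groups in the fit, 66 without the variance trend, 398 with array weights and from 0 (without WT MI replicate 2) to 431 (without WT sham replicate 2) on leaving out a library. Between WT MI and sham it was 0, 3 with only these groups in the fit and 0 to 2 on leaving out a library. Between Foxp3DTR MI and sham it was 70, and it was 23 with a pseudocount of 0.1, 11 with no filter, 10 with only these groups, 28 without the trend and 3 (without sham replicate 1) to 636 (without sham replicate 3) on leaving out a library. With the replicate number as a replicate block the calls were 81, 0 and 16; same-numbered libraries correlated by -0.19 to 0.19 in their deviations, so the numbers are not shown to pair, and no member was called.

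Signs turned as follows; the cause was not tested. Between Foxp3DTR MI and WT MI without scaling, Fdft1 was 0.117, Insig2 0.023 and Mbtps2 0.0458. On leaving out a library, Insig1 ran from -0.112 (without WT MI replicate 3) to 0.188, Sqle from -0.0216 (without WT MI replicate 4) to 0.435 and Cyp51 from -0.00625 (without WT MI replicate 4) to 0.234. Between WT MI and sham, Lss was 0.0948 with quantile normalization, and with the block Idi1 was 0.106 and Lss 0.0308. On leaving out a library, Idi1 ran from -0.33 to 0.165 (without WT MI replicate 4), Lss from -0.216 to 0.0751 (without sham replicate 1), Fdft1 from -0.76 to 0.0164 (without sham replicate 2) and Insig1 from -0.427 to 0.00838 (without sham replicate 2). Between Foxp3DTR MI and sham, Sqle was 0.103 with array weights and 0.0194 with the block. On leaving out a library, Sqle ran from -0.382 to 0.203 and Insig1 from -0.402 to 0.0341, both highest without sham replicate 2.

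Of the related genes, Fads1 passed in 6 alternatives, Cyp27a1 in 3, Lrp1 and Scarb1 in 2 each and Ebp and Acly in 1 each, in the direction given. Ebp and Acly passed only without scaling, where 527 genes were called and the median gene itself moved by 0.22. Cyp27a1, Lrp1 and Scarb1 passed only where 398 to 583 genes were called, beside 145 in the main fit. So did Fads1, apart from the pseudocount of 5 (adjusted p of 0.0488 in limma). Groups of 3 and 4 libraries, picogram RNA inputs and the low coverage of Lss limit the precision of these values.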
